A study of Mus musculus with 12 samples.

Results

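The 34 genes described here encode the machinery that takes up glucose and turns it into lactate, together with a set of genes known to respond to low oxygen. They were chosen by gene symbol: 22 belong to glycolysis and its branch points and 12 to the hypoxia response. All 34 were found, each under 1 gene ID, among the 78317 genes of the expression table. A filter on low counts left 33 of them among 14012 tested genes. Slc2a3, a neuronal-type glucose transporter, had 9.5 counts over all libraries and a level of 0.189 CPM or less, scaled to the total count of a library, in every library, and was not tested.

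Glycolysis splits glucose into pyruvate in a preparatory phase that spends ATP and a payoff phase that returns it, and lactate dehydrogenase then reduces pyruvate to lactate. Hypoxia-inducible factor 1, a dimer with HIF-1α as its oxygen-controlled subunit, binds a core of ACGTG or GCGTG in DNA and activates most glycolytic genes, the mitophagy gene Bnip3 and the prolyl hydroxylases that mark HIF-1α for destruction. Many carcinoma cells run glycolysis at a high rate even when oxygen is plentiful, and both pathways are known to be changed by growth factors as well as by oxygen.

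The cells were of the 4T1 line, derived from a mouse mammary carcinoma and labelled triple negative. PBRM1 is a subunit of the PBAF chromatin remodelling complex, and TGFβ1 is a cytokine whose receptors activate SMAD proteins. The 4 groups were PBRM1 knockout (KO) cells given 5 ng/ml TGFβ1 for 4 days, untreated PBRM1 KO cells, control cells given the same TGFβ1, and untreated control cells, with 3 biological replicates in each. All groups grew in RPMI-1640 with added sodium pyruvate under incubator air with CO2, and the sources used here name no hypoxia treatment. Sample titles call the untreated cells 0 h while the protocol describes wells with or without TGFβ1 for 4 days, so the cytokine and the time in culture cannot be told apart. Whether the KO cells were 1 clone or a pool, and where Pbrm1 was edited, is not given in the sources used here.

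Library totals ran from 9265693 to 11250850 deduplicated 3′ end counts, and log CPM of replicates correlated at 0.978 to 0.992. All 6 epithelial markers checked were detected, with a summed level of 1903 to 2007 CPM in KO cells with TGFβ1, 2200 to 2358 CPM in untreated KO cells, 1634 to 1892 CPM in control cells with TGFβ1 and 2321 to 2428 CPM in untreated control cells. This sum was lower in every TGFβ1 library than in the untreated libraries of the same genotype. Krt8 and Krt18 made up most of it, and the markers did not move alike. Krt14 averaged 35.4 CPM with TGFβ1 and 7.41 CPM untreated in KO cells, and 55.2 and 20.6 CPM in control cells. Epcam averaged 233 and 187 CPM in KO cells, and 206 and 202 CPM in control cells. Krt8, Krt18, Cdh1 and Krt19 had lower means with TGFβ1 in both genotypes. The part of these markers in the results below was not tested. Summed markers of fibroblasts, leukocytes, endothelium and adipocytes reached at most 106, 8.19, 1.28 and 0.958 CPM, and the adipocyte gene Plin1 was at 0. Pbrm1 itself was lower in KO than in control cells by log2 −0.25 ± 0.10 with TGFβ1 (edgeR adjusted p = 0.513) and by −0.33 ± 0.10 without it (adjusted p = 0.349), and since the edited part is not known these 3′ end counts do not check the edit. The replicate 3 libraries with TGFβ1 stood apart in both genotypes. The median of 22 SMAD target genes lay log2 1.04, 0.93 and 0.39 above the untreated mean of the same genotype in KO TGFβ1 replicates 1, 2 and 3, and 0.75, 0.99 and 0.41 above it in control TGFβ1 replicates 1, 2 and 3. Of these 22, 14 rose in KO cells and 12 in control cells, with Fn1, Ccn2, Tnc and Itgb3 at the smallest p in both, and 0 fell. Of all tested genes, 7.65% rose and 3.72% fell in KO cells, and 5.89% rose and 2.91% fell in control cells. In bulk RNA, a lower level in every cell and fewer cells with a high level cannot be told apart.

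Promoter windows of some members are shown with the core of the hypoxia response element marked. Every window shown holds ACGTG, so the display does not stand for all members. Aldoa, Eno1 and Pkm, also lower with TGFβ1 in both genotypes, are not shown. The Eno1 windows held GCGTG but no ACGTG, and an Aldoa and a Pkm window held neither. The members were chosen as glycolysis and hypoxia genes, many of which HIF-1 is known to activate. The core is therefore not independent of that choice. RefSeq promoter windows, 250 bases before to 50 bases after a start on GRCm38.p6, were at hand for 31 of the 34 members, and the expression data themselves were on mm39. Each window is written 5′ to 3′ on the strand of its gene, with ACGTG or GCGTG on either strand in capitals, which on the other strand reads CACGT or CACGC.
Pgk1, chrX:106186850-106187149, plus strand: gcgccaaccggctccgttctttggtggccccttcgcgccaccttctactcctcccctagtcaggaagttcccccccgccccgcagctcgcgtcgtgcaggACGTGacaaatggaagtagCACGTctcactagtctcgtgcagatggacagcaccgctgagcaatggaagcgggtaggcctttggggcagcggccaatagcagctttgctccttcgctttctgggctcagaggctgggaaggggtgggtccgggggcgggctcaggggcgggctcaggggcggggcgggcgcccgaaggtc
Ldha, chr7:46845554-46845853, plus strand: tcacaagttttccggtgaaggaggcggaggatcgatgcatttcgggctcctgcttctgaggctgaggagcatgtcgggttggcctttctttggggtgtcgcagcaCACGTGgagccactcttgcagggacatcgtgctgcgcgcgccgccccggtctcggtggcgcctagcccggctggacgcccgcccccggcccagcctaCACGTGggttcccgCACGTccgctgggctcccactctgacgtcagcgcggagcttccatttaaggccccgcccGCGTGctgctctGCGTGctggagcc
Pgam1, chr19:41911621-41911920, plus strand: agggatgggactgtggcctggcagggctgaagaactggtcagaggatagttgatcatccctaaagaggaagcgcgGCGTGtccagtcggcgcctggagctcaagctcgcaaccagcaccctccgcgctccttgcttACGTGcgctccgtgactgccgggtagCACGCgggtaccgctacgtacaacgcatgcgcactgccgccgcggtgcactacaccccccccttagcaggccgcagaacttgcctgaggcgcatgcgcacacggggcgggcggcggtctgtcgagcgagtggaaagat
Bnip3, chr7:138909457-138909756, minus strand: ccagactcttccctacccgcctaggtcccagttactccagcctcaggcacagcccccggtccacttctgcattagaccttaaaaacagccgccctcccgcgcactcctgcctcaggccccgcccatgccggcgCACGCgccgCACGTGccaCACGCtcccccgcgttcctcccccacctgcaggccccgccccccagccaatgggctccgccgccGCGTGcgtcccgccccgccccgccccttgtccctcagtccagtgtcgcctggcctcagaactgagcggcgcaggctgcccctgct
Higd1a, chr9:121857747-121858046, minus strand: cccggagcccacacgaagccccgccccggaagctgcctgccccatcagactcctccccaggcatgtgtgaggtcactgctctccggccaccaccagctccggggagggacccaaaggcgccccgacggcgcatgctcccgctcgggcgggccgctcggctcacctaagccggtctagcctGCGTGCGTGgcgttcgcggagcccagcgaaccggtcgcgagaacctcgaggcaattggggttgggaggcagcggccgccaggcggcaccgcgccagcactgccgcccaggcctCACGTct
Slc2a1, chr4:119108495-119108794, plus strand: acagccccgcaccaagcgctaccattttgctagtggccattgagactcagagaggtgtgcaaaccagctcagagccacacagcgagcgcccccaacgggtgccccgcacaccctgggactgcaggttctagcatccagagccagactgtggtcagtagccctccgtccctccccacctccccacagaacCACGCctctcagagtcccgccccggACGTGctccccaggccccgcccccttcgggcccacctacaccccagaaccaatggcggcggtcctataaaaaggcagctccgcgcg
Hk2, chr6:82774405-82774704, minus strand: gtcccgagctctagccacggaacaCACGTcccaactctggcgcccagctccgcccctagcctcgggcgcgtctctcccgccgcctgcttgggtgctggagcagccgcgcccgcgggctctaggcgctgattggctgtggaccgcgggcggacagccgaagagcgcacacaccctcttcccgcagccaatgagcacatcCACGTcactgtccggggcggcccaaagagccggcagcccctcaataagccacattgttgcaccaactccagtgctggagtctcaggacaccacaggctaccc

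Ldha, the gene of the lactate dehydrogenase A chain, held 5 ACGTG and 2 GCGTG matches in the window shown, including 2 copies of the palindrome CACGTG, which counts as ACGTG on both strands. A second Ldha window, downstream of it, held 2 GCGTG and 0 ACGTG matches. Over all members, 28 of 31 genes (90.3%) had ACGTG or GCGTG in at least 1 window, against 46.7% of the 27025 genes with a window in the table. By window the shares were 77.1% of the 48 windows of members and 43.8% of all 32851. ACGTG alone was found in 20 of 31 members (64.5%) and in 21.8% of all genes, and CACGTG in 5 of 31 (16.1%) and in 8.09%. The windows of the members were also richer in G and C, with a median of 61.8% against 52.7% for all windows, and held a median of 20.5 CG dinucleotides against 7. Eno2, Gpi1 and Tpi1 had neither ACGTG nor GCGTG in these windows. Slc2a1 and Hk2, whose mean level was higher with TGFβ1, hold the motif, as do Pgk1 and Ldha, whose mean level was lower. The matches are letters in a window and say nothing of binding.

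Transcripts of aldolase, most payoff enzymes of glycolysis, Ldha and the mitochondrial hypoxia genes Bnip3 and Higd1a fell with TGFβ1 in both genotypes, by log2 0.24 to 0.60. In the main fit, which has no replicate block, 0 members rose. With the block Ddit4, Egln1 and Hk2 rose in KO cells, and Ddit4, Hk2 and Slc2a1 in control cells. The question was which members differed between cells given TGFβ1 for 4 days and untreated cells of the same genotype. Throughout, ± beside a log2 fold change is its standard error, and tests are edgeR quasi-likelihood F tests with Benjamini-Hochberg adjustment over all 14012 genes at an adjusted p below 0.05. In PBRM1 KO cells 0 of 33 members rose and 8 (24.2%) fell, while 7.65% of all tested genes rose and 3.72% fell. In control cells 0 of 33 rose and 13 (39.4%) fell, while 5.89% of all tested genes rose and 2.91% fell. The median change of the members was log2 −0.16 in KO cells and −0.32 in control cells, against −0.00 and 0.00 over all tested genes. At an unadjusted p below 0.05, 2 members were higher and 14 lower in KO cells, where 15.7% of all tested genes were higher and 11.5% lower. In control cells 3 were higher and 16 lower at that threshold, against 14.3% and 10.2% of all tested genes. DESeq2 called 0 members higher and 12 lower in KO cells (8.06% and 4.29% of all tested genes), and 1 higher and 14 lower in control cells (6.52% and 3.50%). With limma-voom 0 were higher and 9 lower in KO cells (5.97% and 3.47% of all tested genes), and 0 higher and 12 lower in control cells (4.47% and 2.73%).

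The 8 genes that fell in KO cells, Aldoa, Pgk1, Pgam1, Eno1, Pkm, Ldha, Bnip3 and Higd1a, were among the 13 that fell in control cells, which also held Gpi1, Pfkp, Tpi1, Gapdh and Ndrg1. Abundance bears on these counts: 26 members averaged at least 10 CPM, and all calls were among them, so that 30.8% of these members fell in KO cells and 50.0% in control cells, against 4.11% and 3.12% of the 8709 genes at that level. The 7 tested members below 10 CPM had standard errors of log2 0.20 to 0.43. Of the 33 members, 28 had the same sign in both genotypes and 5 opposite signs, and the fold changes of the 2 genotypes, which share no library, correlated across these genes at Pearson r = 0.857, close to 0.855 over all tested genes.

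The count of members that fell depended on single libraries, as did the count over all genes. It was 3, 1 and 12 in KO cells without KO TGFβ1 replicate 1, 2 or 3, while over all tested genes 181, 175 and 1333 fell in those fits, against 521 with every library. Without untreated KO replicate 1, 2 or 3 it was 2, 2 and 8 members and 245, 261 and 302 of all genes. In control cells it was 8, 1 and 13 members without control TGFβ1 replicate 1, 2 or 3, with 208, 146 and 904 of all genes, against 408 with every library. Without untreated control replicate 1, 2 or 3 it was 8, 6 and 6 members and 262, 196 and 208 of all genes. Pgk1 in KO cells and Eno1 in control cells passed in each of these 6 fits, and every gene that fell kept its sign in all of them. Both TGFβ1 replicate 3 libraries were seen to stand apart in these same data, so a fit without them gives no independent support. Without both TGFβ1 replicate 3 libraries 3 members rose and 12 fell in KO cells, while 2277 of the 14260 genes tested in that fit rose and 1707 fell. In control cells 2 members rose and 13 fell, against 1988 and 1426 of the 14260 genes. With the replicate number as a block, 3 members rose and 14 fell in KO cells, against 1682 and 1098 of 14012 genes.

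**Figure D1:**
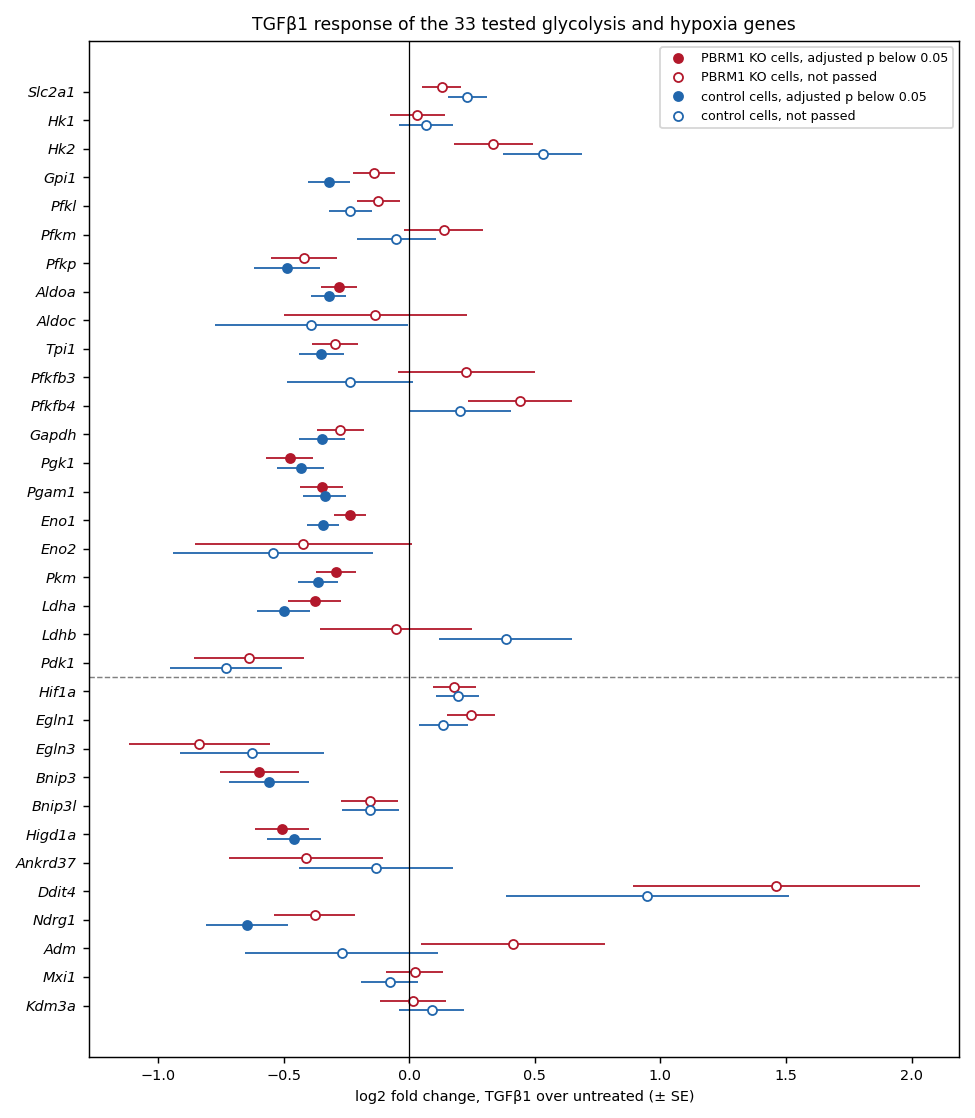
Log2 fold change of TGFβ1 over untreated (x axis, ± SE) for the 33 tested genes, with PBRM1 KO cells in red above control cells in blue, filled where the adjusted p was below 0.05 and glycolysis above the dashed line. The filled points, 8 for KO and 13 for control cells, all lie left of 0, and Slc2a1, Hk2, Hif1a, Egln1 and Ddit4 lie right of it in both genotypes.

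Slc2a1 encodes the glucose transporter GLUT1, and glucose uptake itself was not measured here. Its level was higher in every TGFβ1 library than in the untreated libraries of the same genotype, without passing the adjusted threshold in the main fit. Slc2a1 stood at 67.1, 63.7 and 67.8 CPM in KO cells with TGFβ1, against 57.8, 62.3 and 60.1 CPM in untreated KO cells. Control cells held 79.4, 79.0 and 87.9 CPM with TGFβ1 and 71.0, 67.6 and 71.2 CPM untreated. The groups did not overlap in either genotype. The change was log2 0.13 ± 0.08 in KO cells (adjusted p = 0.315) and 0.23 ± 0.08 in control cells (adjusted p = 0.0855, or 0.0427 with the replicate block).

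Hexokinase phosphorylates glucose and so keeps it in the cell, and 4T1 cells expressed both Hk1, the broadly expressed form, and Hk2, the inducible form. Hk2 stood at 101, 75.1 and 62.2 CPM in KO cells with TGFβ1, against 70.8, 56.3 and 59.6 CPM in untreated KO cells. Its level in control cells was 104, 102 and 103 CPM with TGFβ1, against 85.9, 68.2 and 59.4 CPM untreated. The control groups were separate, while in KO cells the TGFβ1 replicate 3 library lay within the untreated range. The change was log2 0.33 ± 0.16 in KO cells (adjusted p = 0.19) and 0.53 ± 0.16 in control cells (adjusted p = 0.0514). Without both TGFβ1 replicate 3 libraries the edgeR adjusted p was 0.023 in KO and 0.015 in control cells. With the replicate block it was 0.0476 in KO and 0.00307 in control cells. In control cells Hk2 passed in 6 of 16 alternatives, among them DESeq2 (adjusted p = 0.0199). Hk1 averaged 100.2 ± 5.53 CPM with TGFβ1 and 97.1 ± 9.04 CPM untreated in KO cells, and 94.2 ± 14.6 and 89.8 ± 8.23 CPM in control cells (SD, n = 3 each), with differences of log2 0.03 and 0.07 (adjusted p = 0.885 and 0.747). Of the hexokinase counts, Hk2 made up 43.8 ± 4.75% with TGFβ1 and 39.1 ± 4.11% untreated in KO cells, and 52.4 ± 3.90% with TGFβ1 and 44.0 ± 3.32% untreated in control cells.

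Of the 9 tested enzymes of the preparatory phase, 1 fell in KO cells and 4 in control cells, against 3.72% and 2.91% of all tested genes. Gpi1, which turns glucose 6-phosphate into fructose 6-phosphate, stood at 122, 114 and 104 CPM in KO cells with TGFβ1 and at 127, 124 and 119.6 CPM in untreated KO cells. Its levels in control cells were 110.1, 107 and 104 CPM with TGFβ1 and 147, 120.2 and 133 CPM untreated. The KO groups overlapped and the control groups did not. The fall was log2 −0.32 ± 0.08 in control cells (adjusted p = 0.0314), and the difference was −0.14 ± 0.08 in KO cells (adjusted p = 0.307).

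Phosphofructokinase makes the committed step, and the 3 isoenzyme genes did not move alike. Pfkl, the liver-type form, took 85.2% to 87.0% of phosphofructokinase counts as group means. It stood at 149, 136 and 134 CPM in KO cells with TGFβ1 and 160.1, 158 and 135 CPM in untreated KO cells, and at 156, 148 and 151 CPM in control cells with TGFβ1 and 193, 177 and 166 CPM in untreated control cells. Its groups overlapped in KO cells and were separate in control cells, with differences of log2 −0.12 (adjusted p = 0.379) and −0.24 ± 0.08 (adjusted p = 0.106). With the replicate block Pfkl passed in control cells (edgeR adjusted p = 0.0385). Pfkp, the platelet-type form, had 11.98, 11.3 and 12.9 CPM in KO cells with TGFβ1, against 16.9, 14.8 and 16.2 CPM in untreated KO cells. Control cells had 11.8, 11.8 and 11.4 CPM with TGFβ1, against 19.4, 16.4 and 13.2 CPM untreated. Neither pair of groups overlapped. Pfkp fell by 0.49 ± 0.13 on the log2 scale in control cells (adjusted p = 0.038), and its log2 difference in KO cells was −0.42 ± 0.13 (adjusted p = 0.0573, or 0.0354 with the replicate block). Pfkm, the muscle-type form, ran from 7.86 to 13.1 CPM over all libraries, with differences of log2 0.14 in KO cells and −0.05 in control cells (adjusted p = 0.626 and 0.875).

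The kinase-phosphatases Pfkfb3 and Pfkfb4 set the fructose bisphosphate signal that drives phosphofructokinase. Both were scarce, at 1.85 to 4.21 CPM for Pfkfb3 and 1.76 to 3.13 CPM for Pfkfb4. Pfkfb4 differed by log2 0.44 ± 0.21 in KO cells (adjusted p = 0.233) and 0.20 ± 0.20 in control cells, and Pfkfb3 by 0.23 ± 0.27 and −0.24 ± 0.25 in KO and control cells, and neither passed.

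Aldolase A, encoded by Aldoa, splits the phosphorylated hexose into 2 trioses, and it fell in both genotypes. Aldoa stood at 273, 277 and 287 CPM in KO cells with TGFβ1, against 329, 358 and 320.4 CPM in untreated KO cells. Control cells had 342, 329 and 344 CPM with TGFβ1 and 435, 424 and 408 CPM untreated. Each TGFβ1 group lay below its own untreated group, and control cells with TGFβ1 were at the level of untreated KO cells. The fall was log2 −0.28 ± 0.07 in KO cells (adjusted p = 0.0235) and −0.32 ± 0.07 in control cells (adjusted p = 0.0155). Aldoc, the brain-type aldolase, had 1.61 to 5.88 CPM, with differences of −0.14 ± 0.37 and −0.39 ± 0.39.

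Triose phosphate isomerase, encoded by Tpi1, interconverts those trioses. Tpi1 had 198, 196 and 201 CPM in KO cells with TGFβ1, against 253, 255 and 217 CPM in untreated KO cells, and 244, 201 and 212 CPM in control cells with TGFβ1, against 275, 277 and 284 CPM in untreated control cells. The groups were separate in both genotypes. Tpi1 fell in control cells, by 0.35 ± 0.09 on the log2 scale (adjusted p = 0.0306), and in KO cells it differed by −0.30 ± 0.09 (adjusted p = 0.0508, 0.0287 with the replicate block and 0.0287 without both TGFβ1 replicate 3 libraries).

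The payoff phase runs from glyceraldehyde phosphate to pyruvate. Of its 6 tested genes, 4 fell in KO cells and 5 in control cells, with median changes of log2 −0.32 and −0.36. Among all tested genes 3.72% fell in KO and 2.91% in control cells. Eno2, the neuronal enolase with 0.357 to 1.27 CPM, was the payoff gene that passed in neither genotype. Gapdh, which oxidises glyceraldehyde phosphate and is often used as a reference gene, stood at 241, 272 and 282 CPM in KO cells with TGFβ1 and at 298, 343 and 314 CPM in untreated KO cells. It was 283, 273 and 271 CPM in control cells with TGFβ1, against 321, 375 and 353 CPM untreated. The groups did not overlap in either genotype. Gapdh fell in control cells by 0.35 ± 0.09 on the log2 scale (adjusted p = 0.0358). Its difference in KO cells was −0.27 ± 0.09 (adjusted p = 0.0753, 0.0224 with the replicate block and 0.0206 without both TGFβ1 replicate 3 libraries).

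Pgk1, phosphoglycerate kinase, makes the first ATP of the payoff phase and had the largest fall of the glycolytic genes called in KO cells. Pgk1 stood at 145, 146 and 168 CPM in KO cells with TGFβ1, against 222, 222 and 189.9 CPM in untreated KO cells. Control cells stood at 169, 171 and 165 CPM with TGFβ1, against 248, 213 and 219 CPM untreated. All 6 TGFβ1 libraries were below all 6 untreated ones. The fall was log2 −0.48 ± 0.09 in KO cells (adjusted p = 0.0062) and −0.43 ± 0.09 in control cells (adjusted p = 0.0136).

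Pgam1, phosphoglycerate mutase, had 174, 162 and 178 CPM in KO cells with TGFβ1 and 231, 216 and 204 CPM in untreated KO cells. Control libraries held 189, 171 and 199 CPM with TGFβ1 and 249.5, 232 and 225 CPM untreated. The TGFβ1 and untreated libraries were again separate, with falls of log2 −0.35 ± 0.09 in KO cells (adjusted p = 0.0198) and −0.34 ± 0.09 in control cells (adjusted p = 0.029). Eno1, the ubiquitous enolase, was the most counted member, at 851, 860.2 and 885 CPM in KO cells with TGFβ1, against 1006, 1045 and 987 CPM in untreated KO cells. Control cells had 784, 785 and 812 CPM with TGFβ1, against 1025, 1027 and 966 CPM untreated. The spread within each Eno1 group was small beside the gap between groups. Eno1 fell by log2 −0.24 ± 0.06 in KO cells (adjusted p = 0.0308) and −0.34 ± 0.06 in control cells (adjusted p = 0.006).

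Pkm encodes pyruvate kinase, which makes pyruvate and the last ATP of the pathway. It stood at 683, 673 and 693 CPM in KO cells with TGFβ1, against 877, 836 and 774 CPM in untreated KO cells. Control cells had 704, 609 and 654 CPM with TGFβ1 and 913, 809.8 and 808 CPM untreated. No TGFβ1 library reached an untreated one. The fall was log2 −0.29 ± 0.08 in KO cells (adjusted p = 0.0314) and −0.36 ± 0.08 in control cells (adjusted p = 0.0141). A 3′ end count does not tell the M1 and M2 splice forms of Pkm apart.

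**Figure D2:**
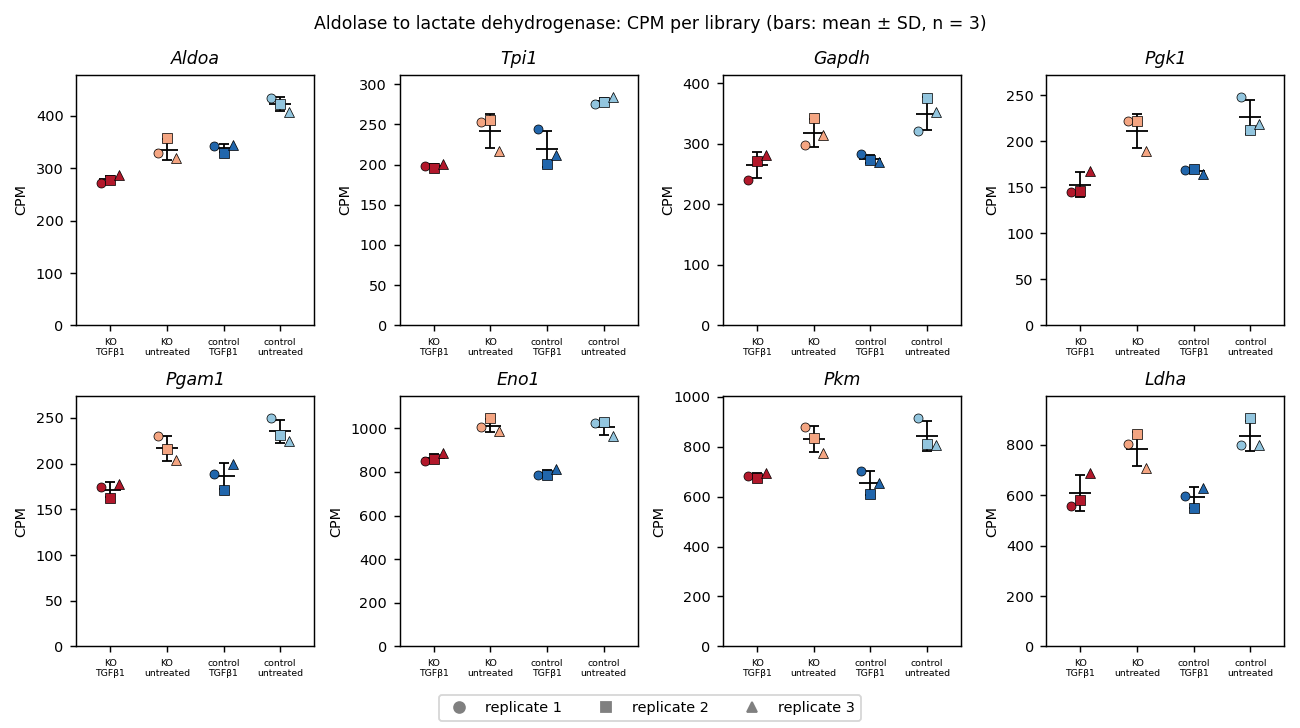
CPM (y axis) of glycolytic genes in each library, by group along the x axis, with a symbol for each replicate and bars for the mean ± SD (n = 3). For Pgk1, the KO libraries with TGFβ1 sit between 145 and 168 CPM and the untreated KO libraries between 189.9 and 222 CPM, and the control groups are as separate.

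At the pyruvate branch point Ldha, the lactate dehydrogenase gene of fast glycolytic tissues, took over 99.7% of the lactate dehydrogenase counts in every library. Ldha stood at 555, 580.5 and 688 CPM in KO cells with TGFβ1, against 803, 841 and 708 CPM in untreated KO cells. It stood at 599, 548 and 628 CPM in control cells with TGFβ1, against 799, 904 and 801 CPM untreated. The replicate 3 libraries of KO cells came closest, at 688 CPM with TGFβ1 and 708 CPM untreated, yet the groups did not overlap. Ldha fell by log2 −0.38 ± 0.11 in KO cells (adjusted p = 0.0368) and −0.50 ± 0.11 in control cells (adjusted p = 0.0123). Ldhb, the heart-type form, was at 0.715 to 1.67 CPM, with differences of −0.05 ± 0.30 and 0.38 ± 0.26. For Ldhb, rows named as its pseudogenes held counts equal to 40.6% of those in the sum, so its own level is uncertain.

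Pdk1 encodes a kinase that inhibits pyruvate dehydrogenase and so holds pyruvate back from the mitochondria. Pdk1 had 26.6, 15.3 and 16.3 CPM in KO cells with TGFβ1 and 37.3, 28.7 and 23.7 CPM in untreated KO cells. In control cells the values were 20.0, 18.5 and 14.6 CPM with TGFβ1 and 36.7, 26.03 and 25.4 CPM untreated. Replicate 1 was the highest of every group, and the KO groups overlapped through it. The difference was log2 −0.64 ± 0.22 in KO cells (edgeR adjusted p = 0.0794, or 0.00143 with the replicate block). In control cells it was −0.73 ± 0.22 (edgeR adjusted p = 0.0582, or 0.000933 with the block), and Pdk1 passed there in 4 of 16 alternatives.

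Summed over the 22 glycolysis members, the level was 3775 ± 102 CPM in KO cells with TGFβ1 and 4510 ± 227 CPM in untreated KO cells. The sum in control cells was 3818 ± 117 CPM with TGFβ1 and 4809 ± 154 CPM untreated (SD, n = 3 each). This was 0.378% of all counts in KO cells with TGFβ1, 0.451% in untreated KO cells, 0.382% in control cells with TGFβ1 and 0.481% in untreated control cells. The sum was weighted towards Eno1, Pkm and Ldha, since each transcript is counted at its 3′ end and abundant ones dominate. Of the 21 tested glycolysis members, 6 fell in KO cells and 10 in control cells, with medians of log2 −0.24 and −0.34. The shares of all tested genes that fell were 3.72% and 2.91%.

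Of the 12 hypoxia members, 2 fell in KO cells and 3 in control cells, with medians of log2 −0.07 and −0.14. Of all tested genes, 3.72% fell in KO and 2.91% in control cells. Hif1a, which encodes the oxygen-controlled subunit and is regulated mostly at the protein level, stood at 93.9, 95.2 and 87.1 CPM in KO cells with TGFβ1 and 83.0, 80.5 and 78.2 CPM in untreated KO cells. Hif1a in control cells stood at 84.5, 87.0 and 85.2 CPM with TGFβ1 and 85.7, 72.3 and 66.5 CPM untreated. The KO groups were separate, with TGFβ1 higher, and the control groups overlapped through untreated replicate 1. The differences were log2 0.18 ± 0.09 in KO cells (adjusted p = 0.198) and 0.19 ± 0.09 in control cells (adjusted p = 0.187), which did not pass.

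The prolyl hydroxylases, which use oxygen to mark HIF-1α for degradation, lay on opposite sides of their untreated levels. Egln1, which encodes the main form PHD2, had 207, 188 and 172 CPM in KO cells with TGFβ1, against 160.2, 161 and 153 CPM in untreated KO cells, and 194, 173 and 148 CPM in control cells with TGFβ1, against 169, 152 and 148 CPM in untreated control cells. Its KO groups were separate and its control groups overlapped. The difference was log2 0.25 ± 0.10 in KO cells (adjusted p = 0.123, 0.0302 with the replicate block and 0.0186 without both TGFβ1 replicate 3 libraries) and 0.13 in control cells (adjusted p = 0.429). Egln3, which encodes the strongly HIF-inducible PHD3, had 10.9, 7.67 and 17.9 CPM in KO cells with TGFβ1, against 22.7, 21.1 and 21.3 CPM in untreated KO cells. Egln3 in control cells had 8.85, 8.77 and 17.2 CPM with TGFβ1, against 20.4, 17.3 and 16.2 CPM untreated. In both genotypes TGFβ1 replicates 1 and 2 were well below the untreated libraries while replicate 3 was next to them or among them. The difference was log2 −0.84 ± 0.28 in KO cells (adjusted p = 0.0733, 0.015 with the replicate block) and −0.63 ± 0.29 in control cells (adjusted p = 0.198). Without both TGFβ1 replicate 3 libraries it was −1.24 in KO cells (adjusted p = 1.82e-05) and −1.04 in control cells (adjusted p = 0.000159). As Egln3 differed least from the untreated mean in the libraries left out, these smaller p-values are not independent support. Egln3 made up 6.12 ± 2.91% of the counts of these 2 genes in KO cells with TGFβ1 and 12.1 ± 0.411% in untreated KO cells, and 6.54 ± 3.378% and 10.3 ± 0.483% in control cells with and without TGFβ1.

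The mitochondrial genes of the hypoxia arm included both of its members that fell in each genotype. Bnip3, a receptor for mitophagy, stood at 24.0, 18.6 and 22.4 CPM in KO cells with TGFβ1, against 37.7, 30.3 and 29.4 CPM in untreated KO cells. The control libraries stood at 26.3, 22.7 and 18.3 CPM with TGFβ1, against 38.5, 27.1 and 33.2 CPM untreated. The groups were separate in both genotypes. Bnip3 fell by log2 −0.60 ± 0.16 in KO cells (adjusted p = 0.0292) and −0.56 ± 0.16 in control cells (adjusted p = 0.0454). The call in control cells was lost in 8 of 16 alternatives, with an adjusted p of 0.0538 with scaling by library size alone, 0.0512 with limma-voom, 0.0596 with the 6 libraries of the contrast, 0.0557 without both TGFβ1 replicate 3 libraries, and 0.0799 to 0.128 in 4 of the fits that leave out 1 library. In KO cells it was lost in 4 of 16, all with 1 library left out. Higd1a, a mitochondrial inner membrane protein induced by hypoxia, had 50.3, 45.9 and 55.5 CPM in KO cells with TGFβ1, against 79.4, 72.9 and 61.6 CPM in untreated KO cells. Higd1a in control cells had 59.95, 52.5 and 57.7 CPM with TGFβ1, against 76.8, 81.4 and 75.2 CPM untreated. Every TGFβ1 library was below every untreated library of either genotype. Higd1a fell by log2 −0.51 ± 0.11 in KO cells (adjusted p = 0.0102) and −0.46 ± 0.11 in control cells (adjusted p = 0.0207).

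Bnip3l, the BNIP3 paralogue also known as NIX, had overlapping groups. It ran from 109 to 129 CPM in KO cells with TGFβ1, from 123 to 144 CPM in untreated KO cells, from 121 to 142 CPM in control cells with TGFβ1 and from 124 to 175 CPM in untreated control cells. Its difference was log2 −0.16 in each genotype (adjusted p = 0.41 in KO and 0.44 in control cells). Bnip3 thus made up 15.2 ± 0.560% of the counts of the pair with TGFβ1 and 19.6 ± 1.11% without it in KO cells, and 14.6 ± 1.94% with TGFβ1 and 18.4 ± 0.752% without it in control cells.

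Ndrg1, a stress-responsive cytoplasmic protein, had 177, 139 and 146 CPM in KO cells with TGFβ1 and 216, 193 and 185 CPM in untreated KO cells. For control cells the levels were 164, 135 and 125 CPM with TGFβ1 and 286, 167 and 211 CPM untreated. The groups were separate, although by little between the highest TGFβ1 and the lowest untreated library. Ndrg1 fell in control cells by 0.65 ± 0.16 on the log2 scale (adjusted p = 0.0272), and its difference in KO cells was −0.38 ± 0.16 (adjusted p = 0.154, or 0.0142 with the replicate block).

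Ddit4, whose product REDD1 inhibits mTORC1 under hypoxia and other stress, had the widest spread of the members. It stood at 487, 510.3 and 158 CPM in KO cells with TGFβ1, against 153, 196 and 65.6 CPM in untreated KO cells, and at 443, 513 and 130.2 CPM in control cells with TGFβ1, against 329, 134 and 101 CPM in untreated control cells. TGFβ1 replicates 1 and 2 were above every untreated library, and replicate 3 was among the untreated libraries in both genotypes. The difference was log2 1.46 ± 0.57 in KO cells (adjusted p = 0.118) and 0.95 ± 0.56 in control cells (adjusted p = 0.326). Ddit4 passed without both TGFβ1 replicate 3 libraries, with adjusted p = 0.00297 in KO and 0.0218 in control cells. With the replicate block it passed in KO cells (adjusted p = 0.000949) and in control cells (adjusted p = 0.0251).

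The remaining hypoxia members showed no call in either genotype. Mxi1, a MYC antagonist, ran from 38.5 to 54.0 CPM over all libraries and Kdm3a, a histone H3 lysine 9 demethylase, from 13.8 to 20.7 CPM, with differences of log2 −0.08 to 0.09. Ankrd37, an ankyrin-repeat protein, ran from 6.23 to 14.5 CPM, and its replicate 2 library was the highest in all 4 groups. Adm, the peptide hormone adrenomedullin, ran from 0.633 to 1.97 CPM, with differences of log2 0.41 ± 0.36 in KO cells and −0.27 ± 0.38 in control cells.

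**Figure D3:**
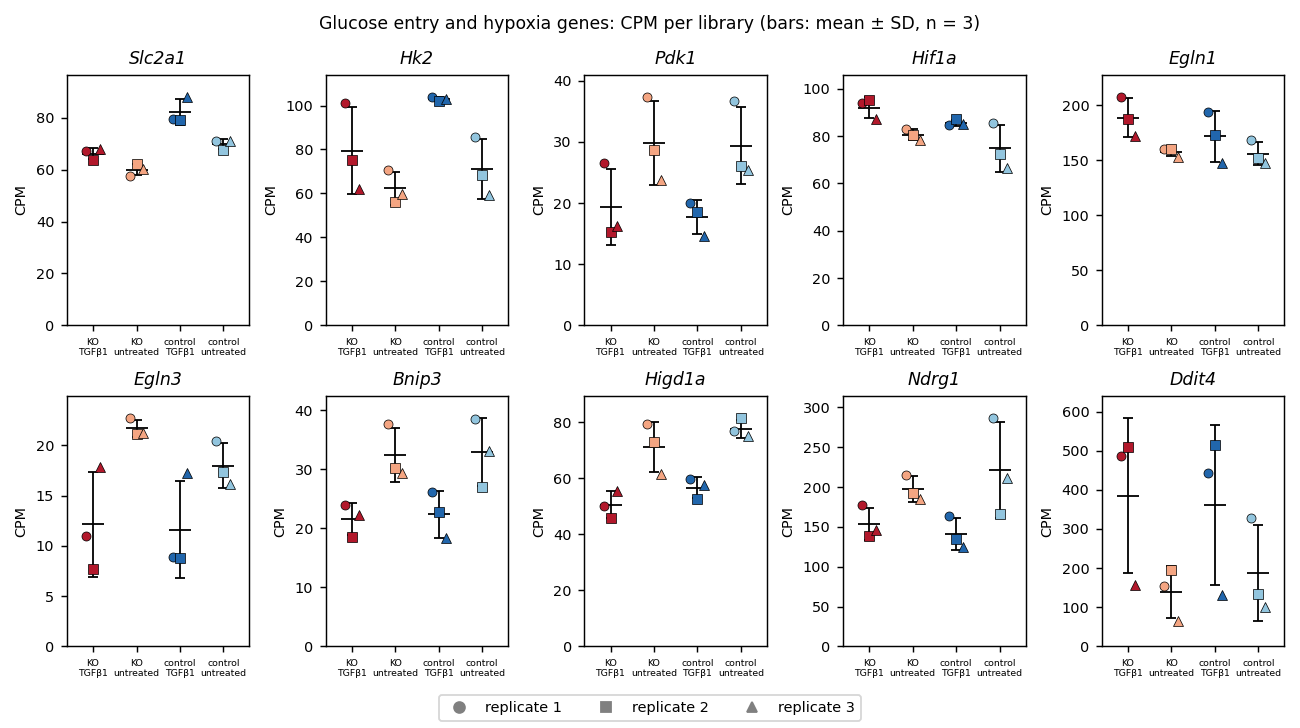
CPM (y axis) per library for genes of glucose entry, Pdk1 and the hypoxia response, by group along the x axis, with a symbol for each replicate and bars for the mean ± SD (n = 3). Bnip3 and Higd1a are lower in all TGFβ1 libraries than in untreated libraries of the same genotype, and for Egln3 and Ddit4 the TGFβ1 replicate 3 symbols lie beside the untreated ones.

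Taken as a median over the tested glycolysis members, the change was not smallest in the libraries with the smallest SMAD target response. Relative to the untreated mean of their genotype, the median of the 21 tested glycolysis members was log2 −0.06, −0.23 and −0.18 in KO TGFβ1 replicates 1, 2 and 3, against 0.09, 0.05 and −0.10 in untreated KO replicates 1, 2 and 3. In control cells it was −0.23, −0.37 and −0.34 with TGFβ1, against 0.09, −0.01 and −0.04 untreated. Replicate 3 thus lay between the other 2 TGFβ1 replicates for glycolysis in both genotypes, while its SMAD target median was the lowest of the 3. The KO groups were not separate on this median, since untreated KO replicate 3 at −0.10 was below TGFβ1 replicate 1 at −0.06. Aldoa, Pgk1, Pgam1, Eno1, Pkm and Ldha, the glycolysis genes that fell in KO cells, each changed least in KO TGFβ1 replicate 3. Ldha lay log2 −0.53, −0.44 and −0.17 from the untreated KO mean in TGFβ1 replicates 1, 2 and 3, and Pgk1 −0.57, −0.54 and −0.32. In control cells replicate 3 changed least for Aldoa, Pgam1, Eno1 and Ldha, but not for Pgk1 or Pkm. For the 12 hypoxia members the medians were −0.14, −0.04 and −0.16 in KO cells with TGFβ1, against 0.06, 0.01 and −0.10 in untreated KO cells. In control cells they were −0.17, −0.05 and −0.19 with TGFβ1, against 0.17, −0.04 and −0.06 untreated. In both genotypes the groups overlapped on this median, since untreated replicate 3 was below TGFβ1 replicate 2.

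**Figure D4:**
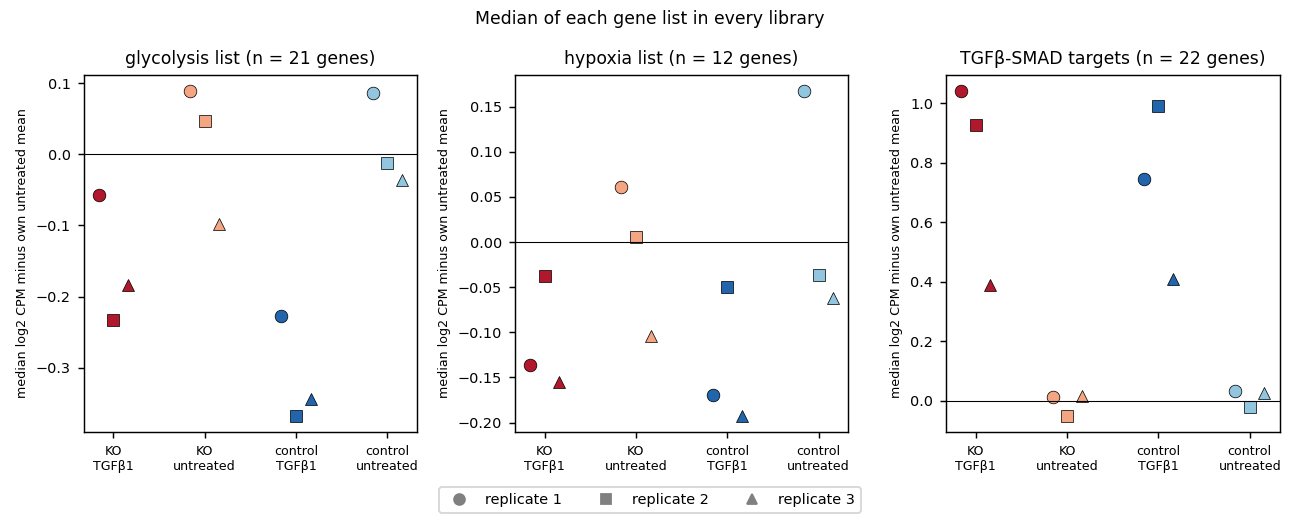
Median log2 CPM minus the untreated mean of the same genotype (y axis) in each library, for the 21 tested glycolysis members, the 12 hypoxia members and 22 SMAD targets, with a symbol for each replicate. TGFβ1 replicate 3 is lowest of the TGFβ1 libraries for SMAD targets, at 0.39 in KO and 0.41 in control cells, but not nearest to 0 for glycolysis, at −0.18 and −0.34.

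Of the genes that neighbour these members in metabolism, Eno3 and G6pdx passed the test. Of 26 tested genes among 42 other genes of glycolysis and pyruvate metabolism, 0 rose and 1 (3.85%) fell in KO cells, a share near the 3.72% of all tested genes that fell there. In control cells 0 rose and 0 fell, against 5.89% and 2.91% of all tested genes, and the medians were log2 −0.10 in KO and −0.14 in control cells. The gene that fell was Eno3, the muscle enolase, by log2 −0.27 ± 0.08 in KO cells (adjusted p = 0.0421), and it differed by −0.25 ± 0.08 in control cells (adjusted p = 0.0654). Next in control cells came Dlat, a pyruvate dehydrogenase subunit, at −0.24 ± 0.09 (adjusted p = 0.124). Of the 8 pentose phosphate genes, 1 (12.5%) fell in each genotype, against 3.72% of all tested genes in KO and 2.91% in control cells. It was G6pdx, the entry enzyme of that pathway, by −0.33 ± 0.10 in KO cells (adjusted p = 0.0433) and −0.45 ± 0.10 in control cells (adjusted p = 0.0124). A further list joined partners and regulators of HIF with genes of growth and glucose-sensing control, among them Mlxip, Txnip and Arrdc4. Of its 19 tested genes, 0 passed in KO cells and 1 (5.26%, against 5.89% of all tested genes) rose in control cells: Cited2, which competes with HIF-1α for its coactivators, by 0.36 ± 0.09 (adjusted p = 0.0293), with 0.14 ± 0.09 in KO cells (adjusted p = 0.342). Nearest in KO cells were Rbx1, a subunit of the ligase that ubiquitinates HIF-1α, at −0.22 ± 0.07 (adjusted p = 0.0597), and Txnip, an inhibitor of glucose uptake, at −0.41 ± 0.16 (adjusted p = 0.119).

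Other known hypoxia-response genes moved in both directions, while the members that passed all fell. Of 48 tested genes of this list, 13 (27.1%) rose and 4 (8.33%) fell in KO cells, against 7.65% and 3.72% of all tested genes. In control cells 9 (18.8%) rose and 2 (4.17%) fell, against 5.89% and 2.91%, and the medians were log2 0.15 in KO and 0.10 in control cells. Vegfa, the angiogenic growth factor, stood at 137, 132 and 39.9 CPM in KO cells with TGFβ1, against 15.5, 17.2 and 13.2 CPM in untreated KO cells. Vegfa in control cells stood at 109.8, 104 and 33.4 CPM with TGFβ1, against 25.9, 18.7 and 15.6 CPM untreated. Vegfa was above every untreated library in all 6 TGFβ1 libraries, by least in replicate 3, and rose by log2 2.73 ± 0.47 in KO cells (adjusted p = 0.00269) and 2.03 ± 0.45 in control cells (adjusted p = 0.0164). Plin2, a lipid droplet coat protein, rose by 1.38 ± 0.15 in KO and 0.91 ± 0.15 in control cells. Rcor2, a corepressor subunit, rose by 0.84 ± 0.14 in KO cells, and Errfi1, an inhibitor of EGF receptor signalling, by 0.81 ± 0.18 in control cells.

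Car9, the membrane carbonic anhydrase that is widely used as a marker of hypoxia, fell in both genotypes. It had 10.9, 12.2 and 9.47 CPM in KO cells with TGFβ1, against 17.8, 20.8 and 16.6 CPM in untreated KO cells, and 6.69, 6.69 and 3.97 CPM in control cells with TGFβ1, against 14.2, 10.9 and 13.0 CPM in untreated control cells. Its groups were separate in both genotypes, with falls of log2 −0.77 ± 0.17 in KO cells (adjusted p = 0.0126) and −1.14 ± 0.19 in control cells (adjusted p = 0.00283). Gbe1, the glycogen branching enzyme, fell by −0.45 ± 0.12 in KO and −0.58 ± 0.12 in control cells. Fam162a, a mitochondrial protein, and Ak4, a mitochondrial adenylate kinase, fell in KO cells by −0.34 ± 0.10 and −0.60 ± 0.18 (adjusted p = 0.045 and 0.047), and differed by −0.27 ± 0.10 and −0.45 ± 0.18 in control cells (adjusted p = 0.121 and 0.137).

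Between genotypes, no member passed the threshold, and the nearest were Slc2a1 with TGFβ1 and Aldoa without it. The question was whether PBRM1 KO cells differed from control cells under the same treatment, and these contrasts share libraries with those of TGFβ1. With TGFβ1, 0 of 33 members were higher and 0 lower in KO cells, while 0.0714% of all tested genes were higher and 0.200% lower. Without TGFβ1, 0 were higher and 0 lower, while 0.0428% of all tested genes were higher and 0.236% lower. At an unadjusted p below 0.05, 4 of 33 members differed with TGFβ1 and 5 without it, all lower in KO cells, where 4.44% and 4.36% of all tested genes were lower. DESeq2 called 1 member lower in each comparison, Aldoa, and 0.457% of all tested genes lower with TGFβ1 and 0.578% without it. With limma-voom 0 members were lower, and 0.178% and 0.214% of all tested genes.

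Aldoa, with the levels given above, was lower in all 3 KO than in all 3 control libraries under each treatment. The difference was log2 −0.29 ± 0.07 with TGFβ1 (adjusted p = 0.145) and −0.33 ± 0.07 without it (adjusted p = 0.0839). DESeq2 gave Aldoa an adjusted p of 0.022 with TGFβ1 and 0.0027 without it. Without both TGFβ1 replicate 3 libraries, the edgeR adjusted p of Aldoa without TGFβ1 was 0.0305. Slc2a1 was also separate between genotypes under each treatment, lower in KO cells by log2 −0.32 ± 0.08 with TGFβ1 (adjusted p = 0.136) and −0.22 ± 0.08 without it (adjusted p = 0.475). The others at an unadjusted p below 0.05 were Hk2 at −0.39 ± 0.16 and Ldhb at −0.85 ± 0.28 with TGFβ1, and Pfkl at −0.24 ± 0.08, Tpi1 at −0.21 ± 0.09 and Pfkfb3 at −0.74 ± 0.26 without it. Their adjusted p ran from 0.352 to 0.61.

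Among the 48 other hypoxia-response genes, 1 was higher and 2 lower in KO than in control cells with TGFβ1, and 0 higher and 1 lower without it. Of all tested genes, 0.0714% were higher and 0.200% lower with TGFβ1, and 0.0428% and 0.236% without it. Rcor2 was higher with TGFβ1 by log2 0.80 ± 0.14 (adjusted p = 0.0286), and Sap30, a histone deacetylase complex subunit, was lower by 0.61 ± 0.10 on the log2 scale (log2 −0.61, adjusted p = 0.027). Nos2, the inducible nitric oxide synthase, had 0.179 to 0.697 CPM in KO cells with TGFβ1 against 2.27 to 3.98 CPM in control cells with TGFβ1, and at most 0.0925 CPM in untreated KO cells against 1.38 to 1.92 CPM in untreated control cells.

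**Figure D5:**
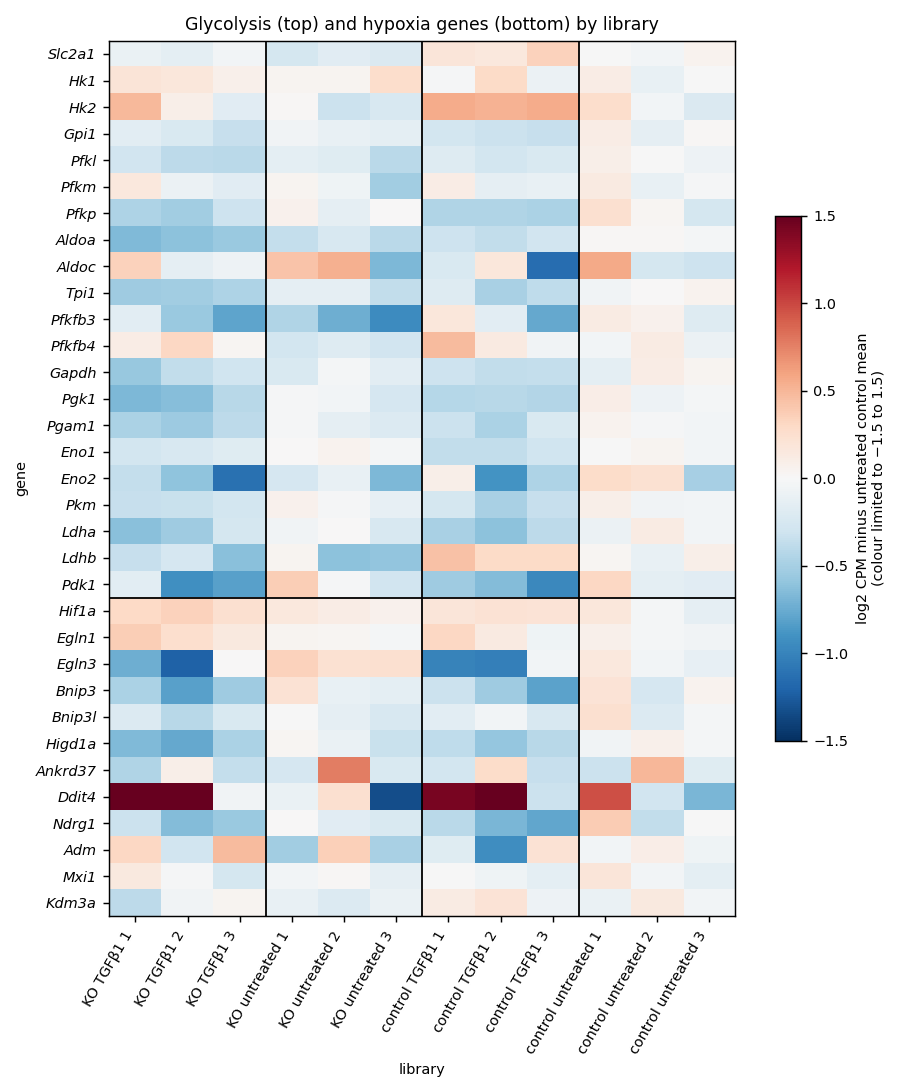
Log2 CPM of each tested gene (y axis, glycolysis above and hypoxia below the line) minus its untreated control mean, in each library (x axis, by group and replicate), with red higher and blue lower. Aldoa is below the untreated control mean in all 6 KO libraries, and Ddit4 is high in TGFβ1 replicates 1 and 2 of both genotypes.

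Whether the TGFβ1 response of the members differed between genotypes was asked with the interaction term of the edgeR fit. It passed for 0 of 33 members and for 0% of all tested genes. At an unadjusted p below 0.05 it reached 0 members and 247 (1.76%) of all tested genes, and DESeq2 and limma-voom called 0 members. Over the 13 members that fell in control cells, the difference of the responses, KO minus control, ran from log2 −0.05 to 0.27 with standard errors of 0.09 to 0.23. The 5 genes called in control cells alone were therefore not shown to respond differently in KO cells. Over all 33 members it ran from −0.44 to 0.68.

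Some of these values hold fractions of reads. The deposited counts were fractional in 10 or more libraries for Aldoa, Tpi1, Gapdh, Pgk1, Eno1, Pkm, Ldha and Bnip3l, and where the fractions come from was not tested. Rows named as pseudogenes held counts equal to 1.96% for Pgk1, 0.484% for Pgam1, 0.222% for Gapdh and 0.0474% for Ldha of the counts of gene and pseudogenes together. Unrounded counts and counts with these rows added again left 8 members lower in KO cells and 13 in control cells.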

How the data were processed

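Per the labels' protocols, poly(A) RNA was primed on its tail, tagmented and read single-end and stranded towards the 3′ end, and counts were deduplicated by molecular identifier. The submitters' processing notes name build mm39, STAR 2.7.11, Subread 2.1.1 with featureCounts, fastp 0.24.0, edgeR 3.38.4 and SAMtools 1.22.1, without roles, settings or the annotation. The deposited values were expected counts, per the file headers and values (91.8% whole, or 72.5% of those above 0, with a tolerance of 0). Deposited beside them were CPM values that the authors made as count over library total (largest difference 4.85e-06). Only the gene rows entered the totals of 9265693 to 11250850 counts, and the 92 ERCC entries held 0.

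Counts were rounded, filtered with filterByExpr and scaled by TMM, and edgeR 4.0.16 in R 4.3.3 fitted 1 mean per group to all 12 libraries, with the quasi-likelihood F test and Benjamini-Hochberg adjustment over 14012 genes. Standard errors were the log2 change divided by the root of F. Per-library medians used log2 CPM with a prior count of 2. The members, gene lists, markers and alternatives were chosen with earlier results of these data known. Genes were named by a rule: all 34 members, Pbrm1, and for each other list up to 4 genes per direction by p, or 2 where none passed, of which 1 is not reported here; Nos2, Rcor2 and Sap30 are the calls of 1 list between genotypes, and Plin1 and the SMAD targets describe the libraries.

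The labels number biological replicates without saying what a number shares. Deviations of same-numbered libraries from their group means correlated by 0.201, 0.139 and 0.202 (TGFβ1 in KO cells) and by 0.396, 0.416 and 0.726 (genotype with TGFβ1). As each exceeded 0.1, the data alone were taken to pair the libraries of both contrasts, and blocked values stand beside results whose call they change. Each fit was repeated with scaling by RLE or by library size, without the filter, with DESeq2 1.42.0, limma-voom (limma 3.58.1), the 6 libraries of a contrast alone, unrounded counts, pseudogene rows added, the replicate block, no TGFβ1 replicate 3 libraries, and each library left out in turn. The edgeR step was tested on simulated data with known changes, for the contrast of TGFβ1 in KO cells. Totals of about this size limit the counting precision of genes below 10 CPM, and p-values measure the spread between the labelled replicates.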

Additional observations from a re-analysis of the deposited data

How the results depend on the processing

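Against 0 members higher and 8 lower with TGFβ1 in PBRM1 KO cells, 1 was higher without the filter on low counts, 3 with the replicate block, 3 without both TGFβ1 replicate 3 libraries and 0 to 2 with 1 library left out. Lower were 4 with the 6 libraries of the contrast alone, 14 with the replicate block, and 1 to 12 with 1 library left out. Over all tested genes, 1500 of 33568 were higher without the filter, and 397 of 13405 were lower with the 6 libraries alone. The 2 higher came without KO TGFβ1 replicate 3, where 1726 of 14328 genes were higher. In control cells, against 0 higher and 13 lower, 2 were higher without the filter, 1 with DESeq2, 1 with the 6 libraries alone, 3 with the replicate block, 2 without both TGFβ1 replicate 3 libraries, and 0 to 1 with 1 library left out. Lower were 1 to 13 with 1 library left out. Over all genes tested in control cells, 1404 of 33568 were higher without the filter and 640 of 13496 with the 6 libraries alone. The 1 higher with a library left out came without untreated control replicate 1, where 443 of 14320 genes were higher. Between genotypes, against 0 lower, DESeq2 called 1 lower with TGFβ1. Without TGFβ1, 1 was lower with each of no filter, DESeq2, the replicate block and no TGFβ1 replicate 3 libraries. It was Ddit4 without the filter (edgeR adjusted p = 0.0206, against 0.956 in the main fit) and Aldoa in the others. Over all tested genes those fits called 191, 81, 105 and 145 lower. Over all alternatives, 1 to 14 members were lower in KO and 1 to 15 in control cells. What moved these counts was not tested.

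Of the members that fell, 4 of 8 in KO cells (Bnip3, Higd1a, Pgam1 and Pgk1) and 8 of 13 in control cells (Aldoa, Eno1, Gapdh, Higd1a, Ldha, Ndrg1, Pgk1 and Pkm) passed under all 10 alternatives that leave out no single library, and all kept their sign under all 16 alternatives. No result changed direction with a call in any alternative. Same-numbered libraries were not taken as paired for TGFβ1 in control cells (correlations 0.258, −0.0835 and 0.137) or for genotype without TGFβ1 (0.149, 0.0690 and 0.125). There the replicate block gave 15 members lower and 3 higher in control cells with TGFβ1, against 890 and 1507 of 14012 genes. It also gave Aldoa lower in KO than in control cells without TGFβ1 (edgeR adjusted p = 0.034). In genotype without TGFβ1 every library correlated best with its own number, a hint from the data and not from the design. Depth limits the counting precision of the 7 tested members below 10 CPM, whose standard errors were log2 0.20 to 0.43; the widest standard error of a member for TGFβ1 was that of Ddit4, log2 0.57, at 65.6 to 513 CPM.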
